A study of Drosophila melanogaster with 6 samples.

Results

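The smooth septate junction genes *mesh*, *Ssk*, *Tsp2A*, *hoka* and *bbg* were followed in hindguts of *Drosophila melanogaster* with and without the oncogenic form of Ras, RasV12. They are 5 of the 17617 genes listed in each library, and they were taken by name and matched through their FlyBase identifiers. Expression was measured in 3 control libraries (genotype byn-G4 tub-G80ts U-gfp) and 3 RasV12 libraries (the same insertions together with U-RasV12). In both genotypes *byn-Gal4* drives GFP in hindgut enterocytes, and a temperature-sensitive Gal80 repressor holds Gal4 inactive at the rearing temperature of 18°C. The genotypes differ in the RasV12 transgene, a constitutively active small GTPase, and possibly in genetic background. The study's methods cross the Gal4 line to a reference line for controls and mention remaining background differences from the UAS lines. Transgene and background cannot be told apart in these libraries. Adult flies were kept at 29°C for 7 days to switch the transgenes on. The study's methods describe female flies aged 3 to 5 days at the start. Each library is a pool of whole dissected hindguts, which the labels describe as enterocytes and muscle, so the transgene was active in only part of the cells sequenced. The labels do not say whether the pools came from separate crosses, so p-values measure the spread between these pools.

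Septate junctions seal the space between neighbouring epithelial cells in insects and limit what passes between them. They come in a pleated and a smooth form. Pleated junctions are the form of ectodermal epithelia, which include the hindgut, whereas smooth junctions are known from the midgut and the Malpighian tubules. Ssk, a small membrane protein, Mesh, a membrane protein with a large extracellular part, and Tsp2A, a tetraspanin, depend on each other to reach the smooth junction in the fly midgut. Hoka, a short membrane protein, belongs to the same set. Big bang, encoded by *bbg*, is a PDZ domain scaffold protein of gut septate junctions. Loss of these junction proteins from the adult midgut is known to weaken the gut barrier.

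Libraries were made with a 3′ mRNA protocol, which yields about 1 read end per transcript, so values do not grow with transcript length. The deposited values are normalized counts per gene, meaning read counts multiplied by a factor for each library and rounded by the authors. Totals lay between 932389 and 1031380 normalized counts. A fit to how often small whole numbers occur in each library estimates the reads behind these totals. The estimates, which carry no error range, were 686666 to 1049515 reads per control library and 989176 to 1402040 per RasV12 library. *Ras85D*, the gene of the transgene, stood at 55, 48 and 54 in control replicates 1, 2 and 3, against 85, 96 and 105 in RasV12 replicates 1, 2 and 3, all in normalized counts. Control replicate 3 was the lowest control library for each smooth junction gene and for the summed markers of midgut and of Malpighian tubules, and log2 fold changes of the smooth junction genes are therefore given with and without it.

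The 5 genes differ widely in gene structure. Positions are those of the BDGP6.54 annotation, whose coordinates are those of dm6. *Ssk* (FBgn0036945) spans 1258 bp of chromosome 3L from 20188522 to 20189779 and encodes 162 amino acids. *Tsp2A* (FBgn0024361) spans 1591 bp of the X chromosome from 1346553 to 1348143 and encodes 244 amino acids. *hoka* (FBgn0035583), from 4898900 to 4900869 on 3L, has 1 annotated transcript and the shortest product of the 5, with 136 amino acids. *mesh* (FBgn0051004) runs from 31178389 to 31195762 on 3R, with 5 transcripts and proteins of 1243 to 1454 amino acids. *bbg* (FBgn0087007) extends over 123449 bp of 3L from 14412828 to 14536276, with 8 transcripts and proteins of 1033 to 2637 amino acids. All 5 are separate loci, and none overlaps another.

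The annotated 3′ ends number 2 for *mesh*, 2 for *bbg* and 1 for each of the others, and the files hold 1 value per gene, so isoforms could not be followed. *Ssk* lies within *CG42674* and *Tsp2A* within *MTPAP*, each on the opposite strand, and the sources do not state whether counting used the strand. Reads of these pairs can therefore not be told apart with certainty. *CG42674* had 6, 34 and 8 normalized counts in control replicates 1, 2 and 3, against 11, 26 and 15 in the RasV12 replicates. *MTPAP* had 17, 23 and 4 against 11, 7 and 23. In control replicate 3 *MTPAP* and *Tsp2A* were both at 4. For *hoka* no other gene lay within 500 bp of the 3′ end, and the gene nearest to that of *mesh*, *Gycbeta100B*, was at 0 in every library.

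All 5 smooth septate junction genes were higher in RasV12 than in control hindguts. Each had its 3 RasV12 libraries above its 3 control libraries, and each passed an adjusted p of 0.05. Fold changes, on the scale of normalized counts with 1 added, were between 5.06 for *Ssk* and 9.62 for *Tsp2A*, the latter resting on a control value of 4 in replicate 3. For this comparison limma was fitted to log2(value + 1) over 7155 genes, and p-values were adjusted by the Benjamini-Hochberg method over all of them. Of these genes 9.04% were called higher and 7.7% lower, and 17.7% had all RasV12 libraries above all control libraries. The study itself singled out *mesh*, *Ssk*, *Tsp2A* and *bbg* on these libraries, so their shared direction is not independent evidence. An exact permutation test of 3 against 3 libraries cannot give a p below 0.1 and was not used.

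**Figure D1:**
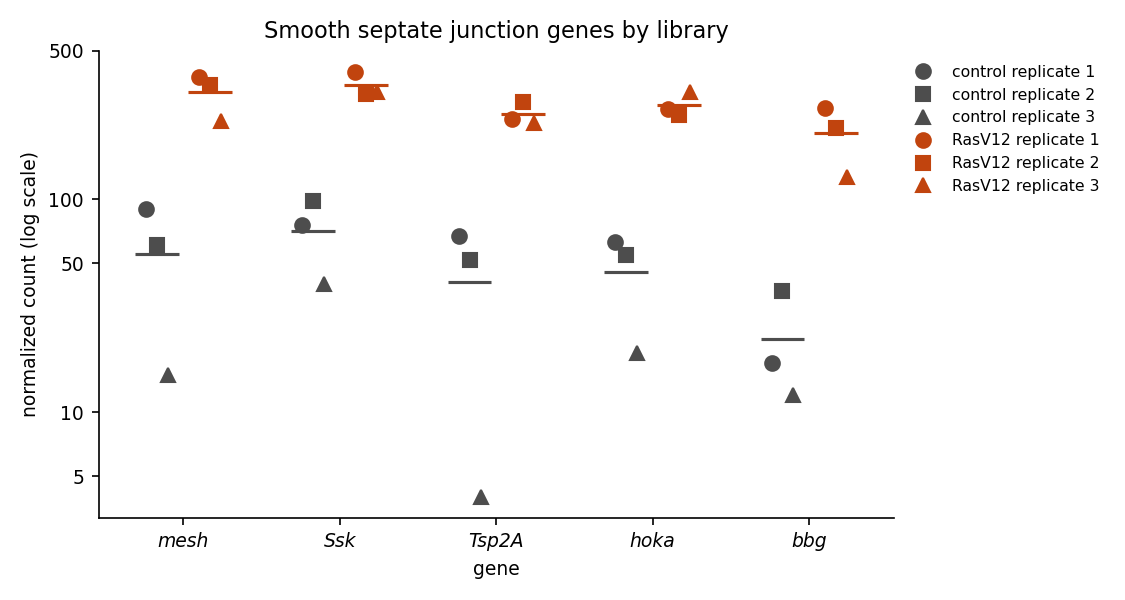
Normalized counts of the 5 smooth septate junction genes on a log axis, with a point for each of the 3 control and 3 RasV12 libraries and a line at the group mean. Every RasV12 value exceeds every control value of the same gene, and control replicate 3 is the lowest library for each gene, down to 4 for *Tsp2A*.

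*Ssk* encodes the small membrane protein that, with Mesh, builds the smooth junction. Control replicates 1, 2 and 3 held 76, 98 and 40 normalized counts of it, and RasV12 replicates 1, 2 and 3 held 398, 315 and 320. The lowest RasV12 value was 3.21 times the highest control value. The mean of 71.3 ± 29.3 in control hindguts compared with 344 ± 46.5 in RasV12 hindguts (SD, n = 3 each). This was a log2 fold change of 2.34 with a 95% interval of 1.67 to 3.01 (standard error 0.31, adjusted p = 0.000209 by limma). *Ssk* was the most even of the 5 genes in the control, with a highest value 2.45 times the lowest, and without control replicate 3 its log2 fold change was 1.98.

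*mesh* encodes the large membrane partner of Ssk. Control hindguts had 90, 61 and 15 normalized counts of it and RasV12 hindguts 378, 347 and 234. The groups were separated by a factor of 2.60 between the nearest libraries, although the control values themselves differed 6-fold. The means were 55.3 ± 37.8 in control and 320 ± 75.8 in RasV12 hindguts (SD, n = 3 each). The log2 fold change of 2.81 had a 95% interval of 1.75 to 3.87 (standard error 0.49, adjusted p = 0.00162 by limma). Leaving out control replicate 3 lowered it to 2.06, at an adjusted p of 4.62e-05 by limma.

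*Tsp2A*, the tetraspanin of the smooth junction, was measured at 67, 52 and 4 in the control pools against 240, 288 and 229 in the RasV12 pools (normalized counts). Its RasV12 libraries were as even as those of *Ssk*, with a highest value 1.26 times the lowest in both genes, while control replicate 3 was far below the other controls. The value of 4 stands for an estimated 3 reads. The exact 95% Poisson interval for counting error reaches from 0.828 to 11.7 normalized counts, against a lower bound of 39.9 for control replicate 2. The log2 fold change of 3.27 had the widest 95% interval of the 5, from 1.75 to 4.78 (standard error 0.70, adjusted p = 0.0064 by limma). Leaving out control replicate 3 gave 2.07 (adjusted p = 2.7e-05 by limma), and leaving out control replicate 1 gave 3.95. When limma was run without its variance trend, *Tsp2A* had an adjusted p of 0.0715 and was not called.

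*hoka* encodes the short membrane protein of the set. Its normalized counts of 63, 55 and 19 in control hindguts compared with 266, 251 and 319 in RasV12 hindguts. Its nearest libraries were 3.98 times apart, the clearest separation among the 5 genes. The means were 45.7 ± 23.4 in control and 279 ± 35.7 in RasV12 hindguts (SD, n = 3 each). The log2 fold change of 2.74 had a 95% interval of 1.92 to 3.56 (standard error 0.38, adjusted p = 0.000281 by limma), and leaving out control replicate 3 gave 2.22.

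*bbg*, the PDZ scaffold gene, had the lowest control mean of the 5, with 17, 37 and 12 normalized counts, against 270, 216 and 128 in RasV12 hindguts. It was also the least even in the RasV12 libraries, where the highest value was 2.11 times the lowest. The means rose from 22.0 ± 13.2 to 205 ± 71.7 (SD, n = 3 each), a ratio of 9.30. The log2 fold change of 3.25 had a 95% interval of 2.37 to 4.12 (standard error 0.41, adjusted p = 0.00013 by limma). It ranged from 2.91 without control replicate 3 to 3.68 without control replicate 2.

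**Figure D2:**
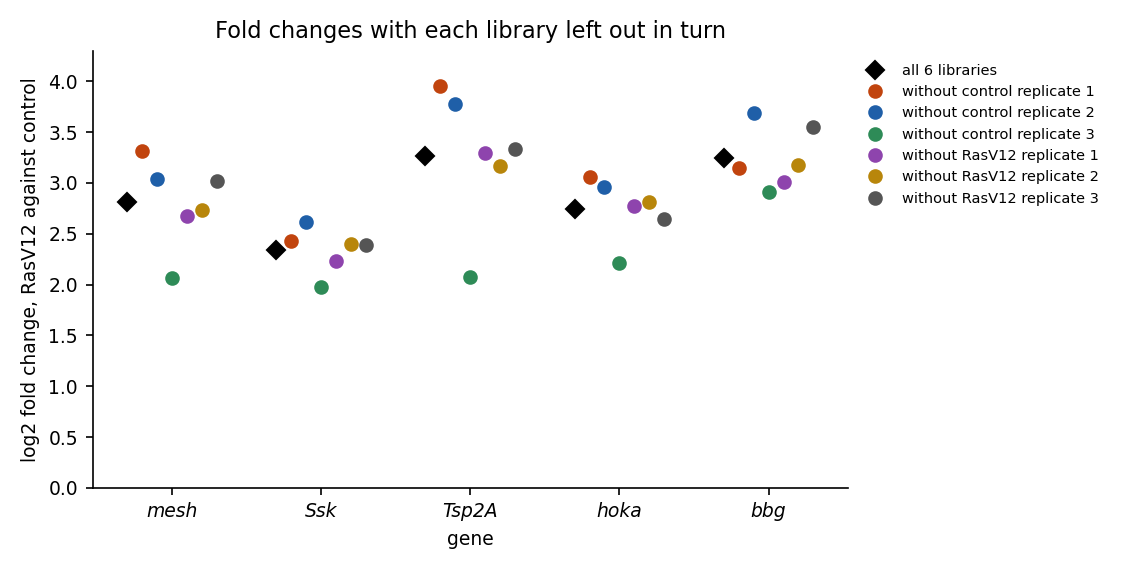
Log2 fold change of each smooth septate junction gene with all 6 libraries (diamond) and with each library left out in turn (circles). Leaving out control replicate 3 gives the lowest value for each gene, between 1.98 for *Ssk* and 2.91 for *bbg*, and every value is above 0.

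The 95% intervals of the 5 genes overlapped, and differences between them were not tested. Among the 7155 genes tested, *Tsp2A* ranked 100, *bbg* 102, *mesh* 154, *hoka* 169 and *Ssk* 249 from the largest rise. The place of *Tsp2A* rests on control replicate 3, without which the log2 fold changes were 2.91 for *bbg*, 2.22 for *hoka*, 2.07 for *Tsp2A*, 2.06 for *mesh* and 1.98 for *Ssk*. By the ratio of means over all 6 libraries, *bbg* at 9.30 was also above *Tsp2A* at 6.15. A log2 fold change of at least that of *Ssk* was found in 3.48% of the genes. By p-value the order was different, with *bbg* at rank 102, *Ssk* at 124, *hoka* at 144, *mesh* at 276 and *Tsp2A* at 481. Each gene passed the filter on low values in the control libraries as well as in the RasV12 libraries.

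The balance between the 5 genes was also examined, since reads of a 3′ protocol count transcripts. *Ssk* made up 22.2% to 26.0% of the summed normalized counts of the 5 genes in RasV12 libraries and 24.3% to 44.4% in control libraries. *mesh* took 19.0% to 24.5% in RasV12 and 16.7% to 28.8% in control libraries. The share of *Tsp2A* was 15.5% to 20.3% against 4.44% to 21.4%. *hoka* accounted for 17.1% to 25.9% against 18.2% to 21.1%, and *bbg* for 10.4% to 17.4% against 5.43% to 13.3%. For each of the 5 genes the ranges of the shares overlapped between the genotypes. The RasV12 libraries therefore held more of all 5 transcripts, while the shares themselves were not separated by genotype.

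Most genes of the pleated septate junction, the form known from the hindgut epithelium, were not called. Of 20 listed core genes, all tested, 1 was called higher, 1 lower and 18 neither. These counts were no higher than the shares over all genes tested, 9.04% called higher and 7.7% lower. All RasV12 libraries lay above all control libraries for 5 of the 20 and below them for 3. Among the 7155 genes tested this held for 1265 and 1092. The median log2 fold change of the pleated genes was 0.32, against 2.81 for the smooth genes and 0.02 for all genes tested. *Lac*, an immunoglobulin domain protein, rose by 0.87 on the log2 scale (standard error 0.28, adjusted p = 0.0463 by limma). This was the highest value of the pleated list, and the lowest end of any 95% interval among the smooth genes was 1.67. *cora*, a FERM domain scaffold protein, had overlapping groups, with 108, 98 and 118 in control against 136, 103 and 144 in RasV12 hindguts (log2 fold change 0.23, adjusted p = 0.585 by limma).

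*Atpalpha*, the catalytic subunit of the sodium pump and also a component of the pleated junction, fell from 4119, 4924 and 4768 to 845, 521 and 417 normalized counts. Its log2 fold change was −3.01 (standard error 0.24, adjusted p = 2.71e-06 by limma). *Atpalpha* held most of the reads of the pleated list in the control. The 20 genes summed to between 4820 and 5739 normalized counts in control libraries, against 1344 to 1833 in RasV12 libraries. The fall of this sum is that of *Atpalpha* and does not describe the other pleated genes. Without *Atpalpha*, the rest of the list summed higher in each RasV12 library than in any control library. The median log2 fold change of the list was 0.32. The 5 smooth genes summed to between 90 and 313 in control libraries and between 1230 and 1552 in RasV12 libraries.

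**Figure D3:**
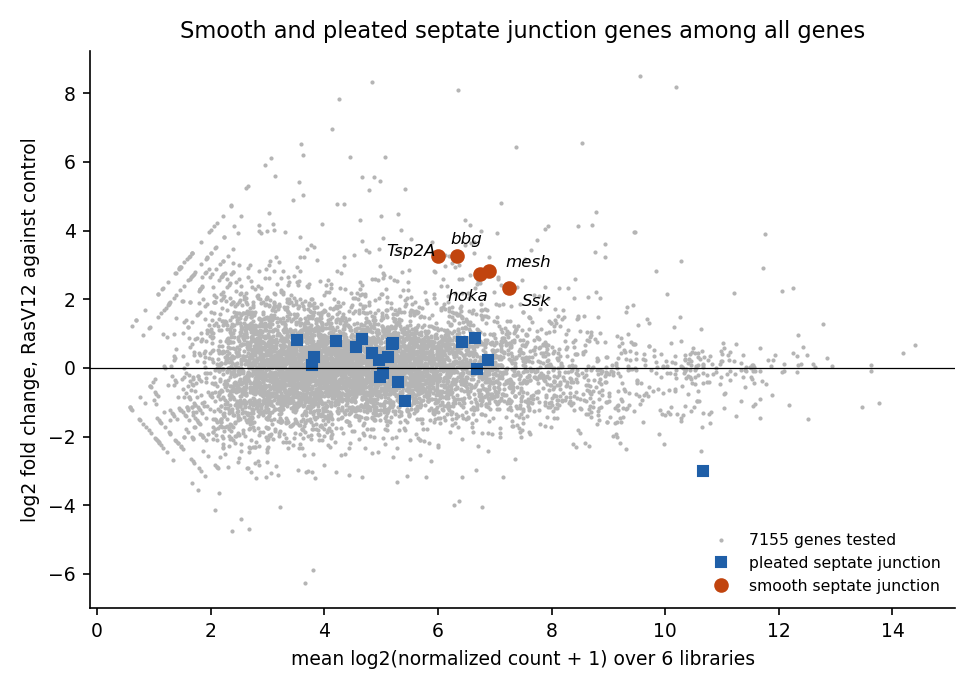
Log2 fold change of RasV12 against control for the 7155 genes tested (grey), by their mean log2(normalized count + 1) over 6 libraries. The 5 smooth septate junction genes (orange circles) lie between 2.34 and 3.27, and the 20 pleated septate junction genes (blue squares) between −3.01 and 0.87.

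Scaffold and adhesion proteins that occur at both junction types were mixed. Of 4 listed genes, 2 were called higher and none lower, where 9.04% of all genes tested were called higher. *l(2)gl*, a cortical polarity protein, went from 42, 51 and 40 normalized counts to 110, 106 and 127 in RasV12 hindguts (log2 fold change 1.35, adjusted p = 0.004 by limma). *Fas3*, which encodes an adhesion protein widely used to mark septate junctions, had 80, 90 and 51 against 117, 168 and 145 (log2 fold change 0.98, adjusted p = 0.0344 by limma). By antibody staining the study reports the opposite for the protein, a widespread loss of FasIII from RasV12 enterocytes. Normalized counts measure RNA of whole hindguts, so the rise of *Fas3* does not show more of the protein. *scrib*, a scaffold protein with PDZ domains, had 104, 97 and 115 against 102, 99 and 80, and its log2 fold change of −0.17 had an adjusted p of 0.698 with limma. The remaining gene, *dlg1*, had 60, 33 and 47 against 41, 18 and 12 (log2 fold change −1.09, adjusted p = 0.118 by limma).

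Of 3 genes of the tricellular junction, where corners of 3 cells meet, 2 were called higher, against 9.04% of all genes tested. *Gli*, a membrane protein related to cholinesterases, went from 10, 17 and 15 normalized counts to 38, 34 and 33 in RasV12 hindguts (log2 fold change 1.29, adjusted p = 0.0335 by limma). *bark*, which encodes the large membrane protein Anakonda, had 17, 4 and 12 against 38, 32 and 44 (log2 fold change 1.88, adjusted p = 0.019 by limma). In both genes all RasV12 libraries lay above all control libraries, as in 17.7% of all genes tested. Both log2 fold changes over all 6 libraries were below those of the 5 smooth junction genes, a difference that was not tested. The 95% interval of *Ssk* began at 1.67, below the estimate for *bark*.

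Of 13 adherens junction and apical polarity genes, 1 was called higher and 12 were not called, with a median log2 fold change of 0.36. The count called higher is near the share of 9.04% over all genes tested. The called gene was *aPKC*, an apical polarity kinase, with 6, 15 and 3 normalized counts in control against 37, 23 and 47 in RasV12 hindguts (log2 fold change 2.20, adjusted p = 0.0136 by limma). *arm*, the fly beta-catenin, had 163, 160 and 384 against 181, 90 and 111, and *baz*, a PDZ polarity protein, 65, 40 and 70 against 64, 67 and 120. Neither passed 0.05.

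**Figure D4:**
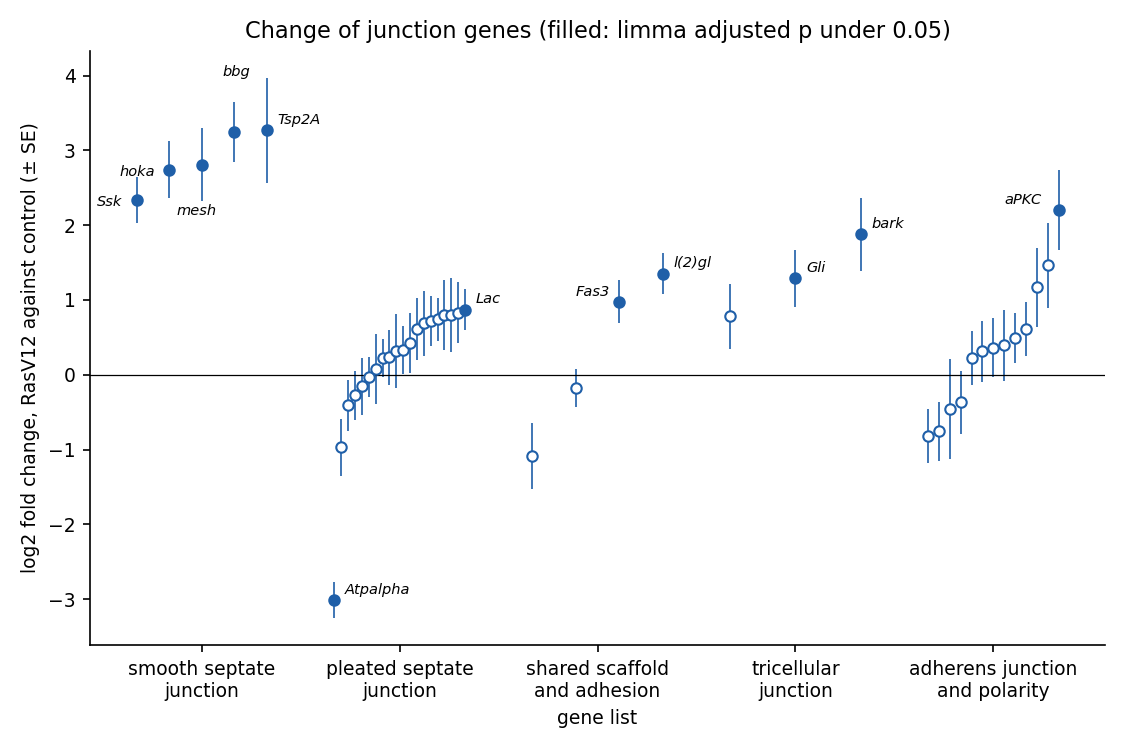
Log2 fold change with its standard error for each tested gene of 5 junction lists, filled where limma's adjusted p is under 0.05 and named there. The 5 smooth septate junction genes are all filled and above 2.3, and 2 of the 20 pleated genes are filled, *Lac* at 0.87 and *Atpalpha* at −3.01.

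Smooth junction genes are known from the midgut and the Malpighian tubules, which adjoin the hindgut, so markers of these tissues were read in the same libraries. Of 38 midgut digestive enzyme genes, 19 were at 0 in every library and 7 could be tested, of which none was called. Over all genes tested 9.04% were called higher and 7.7% lower. The absence of calls among 7 genes therefore does not show that these markers were unchanged. The summed values of the 38 genes were 815, 742 and 111 normalized counts in control replicates 1, 2 and 3, and 273, 399 and 215 in the RasV12 replicates. The RasV12 sums lay within the control range. *zetaTry*, the trypsin gene with the highest mean of the list, had 552, 523 and 64 in control and 118, 164 and 55 in RasV12 hindguts. *alphaTry* had 125, 82 and 13 against 100, 200 and 108.

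The 12 Malpighian tubule markers summed to 429, 111 and 56 normalized counts in control against 64, 63 and 70 in RasV12 libraries. None of the 5 tested was called, where 9.04% of all genes tested were called higher and 7.7% lower. Control replicate 1 held the highest sum, most of it *Alp4*, and the other 5 libraries lay between 56 and 111. *Alp4*, a tubule alkaline phosphatase, had 353, 68 and 37 against 33, 35 and 32. *Prestin*, an anion transporter, had 15, 14 and 15 against 15, 13 and 14. The 4 midgut transcription factor genes summed to 17, 14 and 1 normalized counts in control against 42, 25 and 39 in RasV12 libraries. These sums were separate between the genotypes, with a ratio of means of 3.31. For single genes, 17.7% of those tested had all RasV12 libraries above all control libraries. Neither of the 2 transcription factor genes tested was called, where 9.04% of all genes tested were called higher. *GATAe*, a GATA factor of the midgut, had 8, 8 and 1 normalized counts in control against 26, 11 and 33 in RasV12 hindguts (log2 fold change 2.03, adjusted p = 0.0532 by limma). *nub*, a POU factor of enterocytes, had 8, 2 and 0 against 16, 14 and 6 (log2 fold change 2.02, adjusted p = 0.12 by limma). *lab*, a homeobox gene of the middle midgut, was at 0 in every library. The remaining gene, *srp*, went the other way, with 1, 4 and 0 in control against 0 in every RasV12 library.

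Within the control, the smooth junction genes and the digestive enzyme genes were lowest in the same library, replicate 3. Relative to the mean of control replicates 1 and 2, control replicate 3 differed on the log2 scale by −1.01 for *bbg*, −1.09 for *Ssk*, −1.58 for *hoka*, −2.23 for *mesh* and −3.59 for *Tsp2A*. The median of this log2 difference was −2.87 for the tested digestive enzyme genes and −2.70 for the tested tubule markers, for which the high values of control replicate 1 enter the mean. It was 0.08 for the pleated junction genes and 0 for all genes tested. The part of midgut or tubule tissue in the values of the smooth junction genes, in either genotype, was not tested. Without control replicate 3, limma's adjusted p of the 5 genes lay between 9.01e-06 and 4.62e-05.

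**Figure D5:**
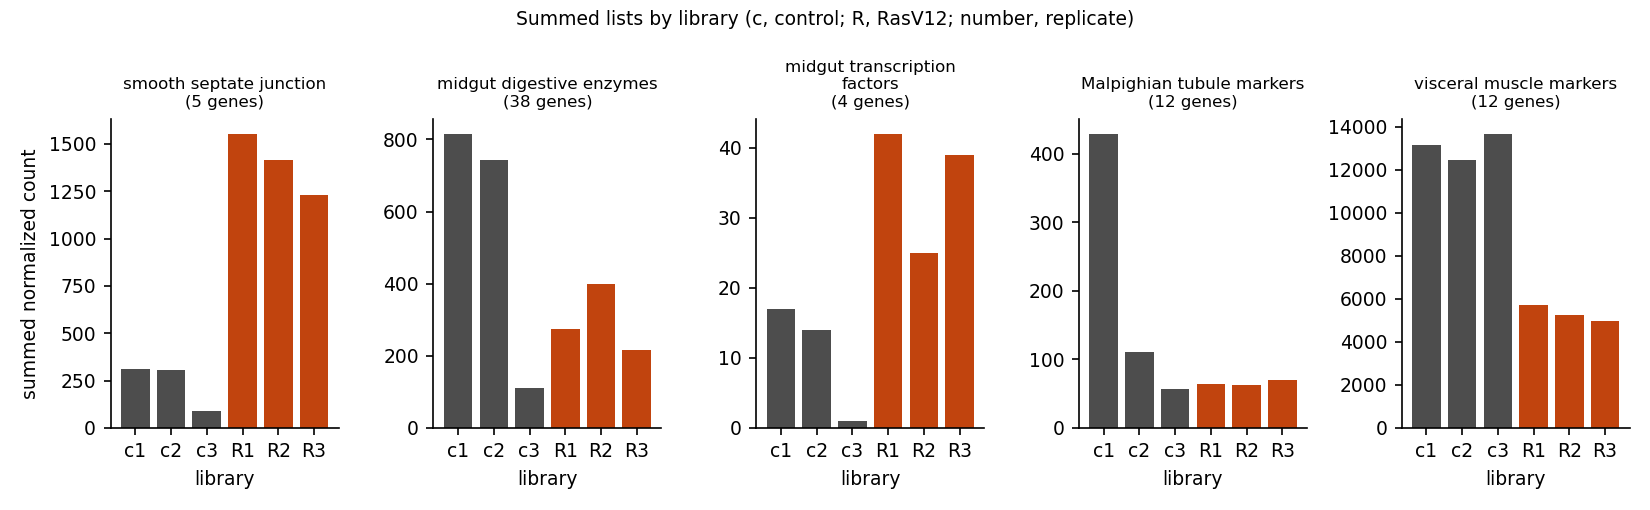
Summed normalized counts in each library (c1 to c3, control; R1 to R3, RasV12) of the smooth septate junction genes, midgut digestive enzymes, midgut transcription factors, Malpighian tubule markers and visceral muscle markers, with separate axes from 0. The junction sums are 1230 to 1552 in RasV12 libraries, above all controls, while the enzyme sums of 215 to 399 lie between control replicate 3 (111) and the other controls and the transcription factor sums of 25 to 42 lie above the controls (1 to 17).

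The share of muscle RNA also differed between the genotypes. The 12 visceral muscle markers summed to 12481 to 13672 normalized counts in control and 4967 to 5732 in RasV12 libraries. Of these markers 11 were called lower, against 7.7% of all genes tested. *Tm1*, a tropomyosin gene, fell by 0.77 and *Act57B*, an actin gene, by 0.97 on the log2 scale, and the median of the list was −1.46. In whole hindguts, fewer muscle cells and less RNA per muscle cell cannot be told apart, and the same holds for a rise of an epithelial gene. The part of this shift in the values of the junction genes was not tested.

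Genes whose pattern over the 6 libraries was most like that of each smooth junction gene were found by the root mean square difference of centred log2(value + 1), among 2088 other genes with a mean of at least 50. Nearest to *mesh* was *CG6495* (difference 0.156), with 25, 16 and 4 normalized counts in control against 84, 101 and 70 in RasV12 hindguts, followed by *CG9380* (0.294) and *CG4783* (0.302). Nearest to *Ssk* were *CG9568* (0.189), *odd* (0.191) and *drm* (0.199). *odd* and *drm* encode zinc finger proteins of the odd-skipped family. *drm* had 44, 58 and 32 against 270, 196 and 264, and *odd* 24, 30 and 8 against 110, 86 and 79.

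For *hoka* the nearest genes were *CG17108* (0.156), *CG9568* (0.194) and *Tsp42Ed* (0.200), the last a tetraspanin gene with 70, 78 and 28 against 305, 253 and 443. *CG17108* had far more reads, with 2036, 1456 and 617 normalized counts in control against 7827, 9027 and 11239 in RasV12 hindguts. The nearest genes to *bbg* were *CG40198* (0.247), *CG13217* (0.306) and *CG30160* (0.361). Those nearest to *Tsp2A* were *lncRNA:CR32368* (0.372), *CG12974* (0.400) and *CG15347* (0.403), with *CR32368* at 9 and *CG12974* at 3 in control replicate 3. Since these genes were picked for a pattern like that of the smooth junction genes, their own rise in RasV12 hindguts follows from the choice and is given with no test.

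The places that the smooth junction genes took among each other's neighbours varied widely. From *mesh* the others were at places 7 (*hoka*), 22 (*Tsp2A*), 23 (*Ssk*) and 37 (*bbg*). From *Ssk* they were at 17 (*hoka*), 80 (*mesh*), 87 (*bbg*) and 494 (*Tsp2A*), and from *hoka* at 10 (*Ssk*), 18 (*mesh*), 63 (*bbg*) and 104 (*Tsp2A*). From *bbg* they were at 19 (*Ssk*), 33 (*hoka*), 40 (*mesh*) and 126 (*Tsp2A*), and from *Tsp2A* at 6 (*mesh*), 16 (*hoka*), 41 (*Ssk*) and 42 (*bbg*). How near other genes with a rise of like size would fall was not examined. The low value of *Tsp2A* in control replicate 3 enters its distances.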

How the data were processed

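The deposited values are normalized counts per gene (a score with no fixed range), which the authors made from 3′ mRNA reads by aligning to dm6 with hisat2 and unmapped reads with bowtie2, then counting and scaling through metaseqR2 with DESeq and its utr setting. Tool versions and strand use are not given in the sources used here. Library factors were estimated by a fit to how often each small whole number occurs in a library.

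A gene was tested where any library exceeded 9, the median value of genes that are not at 0 throughout, which left 7155. Two-sided p-values came from limma 3.58.1 in R 4.3.3, on log2(value + 1) and with the prior variance following a trend over the mean, and were adjusted by the Benjamini-Hochberg method over all genes tested. The procedure was checked on simulated data. A pseudocount of 1 understates changes of low genes. Names came from Ensembl 115 (17520 of 17617 identifiers). The members and the 13 gene lists were chosen with earlier results of these data known. Named genes were the members, their 3 nearest genes each, and, of each list, the called genes (11 muscle genes are summarised) and the 2 with the highest means. *lab*, *srp*, *dlg1*, *CG42674*, *MTPAP* and *Gycbeta100B* were named after their values were seen. Alternatives covered scaling, voom, pseudocounts, filters, the variance trend, the replicate number and each library left out. Tables used Python 3.11.15, pandas 2.3.3 and statsmodels 0.14.6, and plots matplotlib 3.10.9.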

Additional observations from a re-analysis of the deposited data

How the results depend on the processing

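All 5 smooth septate junction genes kept their direction under all 17 alternatives, and all 5 were called higher in 16 of them. Without the variance trend 4 of the 5 were called, *Tsp2A* keeping its log2 fold change of 3.27 with limma's adjusted p at 0.0715, and the number of genes called was 704 in place of 1198. With a library left out the number called ranged from 642 (without RasV12 replicate 2) to 1292 (without control replicate 3), and it was 795 without RasV12 replicate 1. In these 6 fits limma's adjusted p stayed at or below 0.039 for *Tsp2A*, 0.017 for *mesh* and 0.00359 for the others. Same-numbered libraries did not deviate together across all genes tested (correlations of −0.05, 0.00 and −0.01). A pairing that shows in few genes could be missed this way. With the replicate block 1058 genes were called, and *mesh* had a limma adjusted p of 0.000114 and *Tsp2A* of 0.00107. With the summed digestive enzyme genes as a covariate, chosen after seeing the data, log2 fold changes were between 2.52 for *Ssk* and 3.88 for *Tsp2A*. The enzyme sum was 111 in control replicate 3 against 815 and 742 in the other controls, so this fit depends strongly on that library. It does not test the part of midgut tissue in the junction values. Scaling to library totals or upper quartiles moved the median of all genes from 0.02 to −0.04 on the log2 scale. Control values as low as an estimated 3 reads limit what can be said of *Tsp2A* in single libraries.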

Other observations

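Other marker lists were read in the same libraries. Of 6 hindgut identity genes, *byn*, the T-box factor gene after which the Gal4 driver is named, had 299, 283 and 450 normalized counts in control against 60, 144 and 97 in RasV12 hindguts (log2 fold change −1.82, limma's adjusted p = 0.00153). *otp*, a homeobox gene, was also called lower (−1.34, limma's adjusted p = 0.0191), while *drm* (2.45, limma's adjusted p = 7.47e-05) and *hh*, the Hedgehog ligand gene (1.99, limma's adjusted p = 0.0105), were called higher. The libraries thus held hindgut transcripts in both genotypes. The list summed to 432 to 594 in control and 439 to 496 in RasV12 libraries. These sums combine the fall of *byn* with the rise of *drm*, so they do not measure the share of hindgut tissue.

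Of 9 enteroendocrine peptide genes, *NPF* had 0, 1 and 1 normalized counts in control against 605, 430 and 518 in RasV12 hindguts, and *CCHa2* had 20, 18 and 5 against 1, 0 and 2 (limma's adjusted p = 1.67e-08 and 0.0256). *AstA* had 35, 36 and 3 against 18, 11 and 4 and was not called. Markers of hemocytes and of fat body were mostly near 0. The hemocyte list summed to 37 to 92 in control and 82 to 102 in RasV12 libraries, nearly all of it *crq*, and the fat body list to 132 to 364 and 52 to 211, mostly *apolpp*. None of the tested genes of these 2 lists was called.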
